A study of Mus musculus with 24 samples.

Results

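The 8 pre-TRAP libraries of the series, out of 24 libraries in all, hold polyA RNA of whole ventral otocysts, and they were made in 2 experiments. Experiment 2 comprised libraries 17, 18, 23 and 24 and experiment 1 comprised libraries 19, 20, 21 and 22, as the batch entry of the labels gives it. The question was how the RNA of the dissected tissue differed between the experiments, in its cell types and its stage of maturity, with genotype as a covariate. All embryos were at embryonic day 14.5 on the strain background C57BL/6J x 129X1/SvJ. In each experiment 2 libraries came from Fgf20+/- embryos (het, libraries 17 and 23 and libraries 19 and 21) and 2 from Fgf20-/- embryos (mut, libraries 18 and 24 and libraries 20 and 22). Both genotypes also carried an L10a-eGFP ribosomal protein expressed in the Fgf20-Cre lineage, which serves to purify ribosomes in the other 16 libraries (TRAP, translating ribosome affinity purification, with 8 libraries of each experiment). The pre-TRAP name is read as RNA from before that purification, although the labels give both kinds of library the same extraction text. From 3 to 7 embryos of 1 genotype were pooled per library, so a library averages over animals. No label says that libraries were independent dissections beyond their pools, and what the experiments differ in (day, hands, reagents or sequencing) is not stated in the labels. The p-values therefore measure the spread between these libraries, and a difference in tissue and a difference in handling cannot be told apart by this design.

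The ventral otocyst contains the growing cochlear duct, whose floor holds the prosensory domain that gives rise to hair cells and supporting cells, with the Kolliker organ beside it and a non-sensory roof above. Around the duct lie periotic mesenchyme and the cartilage of the future otic capsule, and the tissue also holds spiral ganglion neurons, glia, vessels, blood and melanocyte precursors. At this stage prosensory cells leave the cell cycle and the first hair cells differentiate, and the Lin28b, Hmga2 and Igf2bp genes decline as the organ matures.

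Total counts ran from 3.60e+07 to 5.34e+07 in experiment 1 and from 3.22e+07 to 3.43e+07 in experiment 2. Within an experiment no library looked like a copy of another, as the chi-square of the 12 pairs, divided by its degrees of freedom, was 8.4 to 134.7. The first principal component of the 8 libraries held 53.9% of the variance, with experiment 1 at -56.77 to -6.57 and experiment 2 at 24.24 to 60.71. The second held 22.3% and set apart library 19 (46.88) and library 17 (29.07), both het, from the other 6 (-31.6 to 0.5). Libraries 19 and 17 had the highest levels of their experiments for the lists of prosensory genes, hair cell genes, periotic mesenchyme and nuclear and imprinted long non-coding RNAs, where the level of a list is its mean log2 of CPM (a library's counts put on a common total) plus 0.5. List counts that change without these 2 libraries are therefore given beside the results or together after them. Library 21 was far below the rest of experiment 1 for histone H2A genes and for Rps2 and Cox5a, as given below. The mix of male and female embryos varied within both experiments. Library 19 and library 24 had no count of the X-inactivation RNA Xist, while the Y-linked Ddx3y was at 0.187 CPM in library 21 and 1.14 CPM in library 17 against 16.7 to 47.5 CPM in the other 6. None of the 5 sex-linked genes tested was called between the experiments with all 8 libraries. Without libraries 17 and 19, 3 Y-linked genes were higher, with library 21, low in Ddx3y, still in experiment 1.

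Of 21954 genes tested with edgeR's quasi-likelihood test, 2139 (9.74%) were higher and 1092 (4.97%) were lower in experiment 2 at an adjusted p under 0.05, and 6332 (28.8%) had an unadjusted p under 0.05. The number of lower calls changed with the libraries used. Lower calls numbered 568, 498, 996 and 570 without library 17, 18, 23 or 24. They numbered 479, 698 and 601 without library 20, 21 or 22, but 1748 without library 19. Leaving out a library also removes a replicate, and the effect of fewer replicates was not told apart from that of the library. Leaving out libraries 17 and 19 together keeps libraries 21 and 23 as the only het libraries of their experiments. Genes called only in that fit therefore lean on library 21, which stood apart from its experiment for some genes. Without both libraries 17 and 19 there were 3536 genes higher (15.5% of 22824) and 2262 lower (9.91%). All experiment 2 libraries lay above all of experiment 1 for 2682 genes (12.2%) and below for 1758 (8.01%).

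The genes called were unevenly spread over kinds of RNA. Pseudogenes, copies of genes that as a rule make no protein, were called higher in 788 of 4004 cases (19.7%) and lower in 320 (7.99%). Protein-coding genes were called higher in 919 of 14651 cases (6.27%) and lower in 658 (4.49%), and long non-coding RNAs in 56 and 33 of 1065. Small structured RNAs were higher in 17 of 79 cases and lower in 1. Of the 544 genes called and more than 8-fold higher, 274 were pseudogenes, 175 were gene models with no class in the annotation and 69 were protein-coding genes, while 2 genes were called and more than 8-fold lower. The share of a library's counts that fell on pseudogenes was 31.4% to 33.7% in experiment 1 and 29.1% to 31.6% in experiment 2, so it was not larger in the experiment with more pseudogenes called higher. How reads that match several copies were counted is not given in the sources used here, so the count of a gene with near-identical copies is uncertain.

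**Figure D1:**
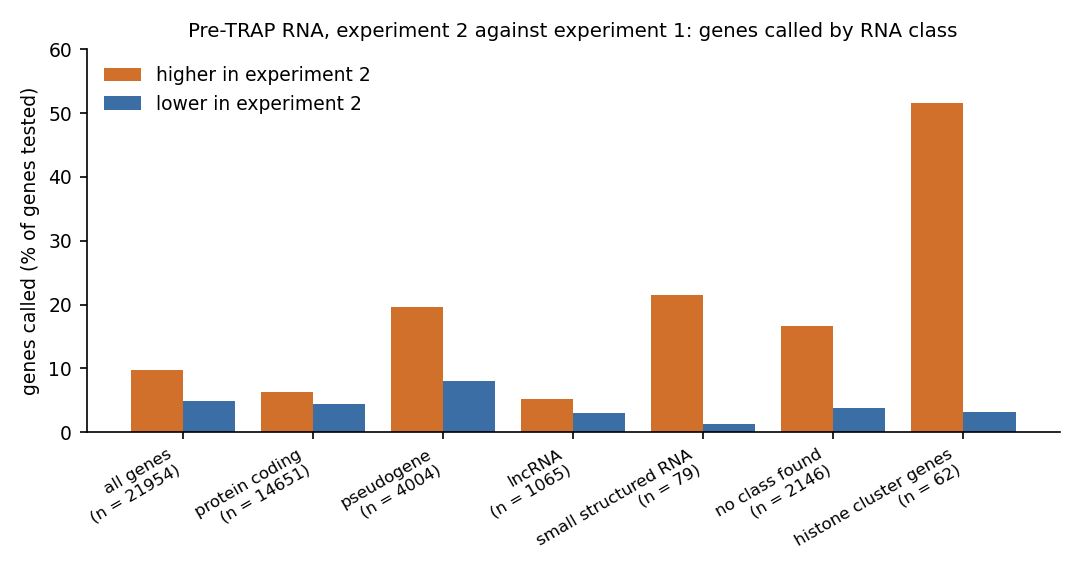
Bars give the percentage of tested genes called higher (orange) or lower (blue) in pre-TRAP libraries of experiment 2, by RNA class, with the number tested under each name. Pseudogenes, with 19.7% higher, and the histone cluster genes, with 51.6%, stand above the 6.27% of protein-coding genes.

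Pseudogenes and the genes they are named after could be set side by side for 493 pairs with 223 such parent genes. In this set 66 pseudogenes were higher and 76 were lower, and 15 parents were higher and 46 were lower. Unlike this set, the whole class of 4004 pseudogenes had more higher (19.7%) than lower (7.99%). In 71 pairs both were lower and in 16 pairs both were higher. Pairs that share a parent are not separate cases, and Rps19-ps1 and Rps19-ps2 both had means of 2192 and 1097 CPM. In 17 pairs the pseudogene was higher while its parent was lower. Psmb6-ps was at 0.722, 0.788, 1.10 and 1.48 CPM in libraries 19, 20, 21 and 22 and at 8.07, 6.55, 7.85 and 9.45 CPM in libraries 17, 18, 23 and 24. The experiments did not overlap, and its log2 difference was 2.97 ± 0.25 (SE, adjusted p = 1.56e-05). Its parent Psmb6, a catalytic subunit of the proteasome, fell from 561.5 ± 70.6 to 363.2 ± 29.7 CPM (SD, n = 4 each, log2 difference -0.63, adjusted p = 0.00916).

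Histone genes of the replication-dependent clusters, which supply new nucleosomes in S phase and whose messages mostly lack a polyA tail, differed by family. Of the 62 tested, 32 were higher (51.6%) and 2 were lower (3.23%), beside 9.74% and 4.97% of all genes. The 20 genes of the H2A family summed to 117.4, 104.4, 7.7 and 107.7 CPM of the library total in libraries 19, 20, 21 and 22, and to 1966.0, 1158.3, 2008.3 and 1898.0 CPM in libraries 17, 18, 23 and 24. Every library of experiment 2 was far above every library of experiment 1, and library 21 was far below the rest of its experiment. The mean rose from 84.3 ± 51.4 to 1757.7 ± 402.2 CPM (SD, n = 4 each), a ratio of 20.85, and 15 of 16 H2A genes tested were called higher. All 10 H3 genes tested were called higher too, with sums of 3.7 to 15.5 CPM in experiment 1 and 52.8 to 78.5 CPM in experiment 2. Only 4 of 18 H2B genes (22.2%) and none of 13 H4 genes were called, although 30 of these 31 differences were positive. The H2B sums were 60.3 to 82.5 CPM against 109.3 to 141.3 CPM, and the H4 sums were 95.1 to 156.8 CPM against 158.3 to 267.7 CPM. These sums are per library total. In normalised CPM, 8 of 18 H2B genes and 0 of 13 H4 genes had all experiment 2 libraries above all of experiment 1. Of all genes tested this held for 12.2%. Of 5 linker histone H1 genes, 3 were higher and 2 were lower. The 2 that were lower include Hist1h1b, which fell from 14.3 ± 3.68 to 6.71 ± 1.14 CPM (SD, n = 4 each, adjusted p = 0.00309). H2A and H3 genes within a family are near copies of each other, and Hist1h2an and Hist1h2ah had means of 6.73 and 6.73 CPM in experiment 1 and 129.2 and 129.0 CPM in experiment 2. Whether reads that match several copies were counted at each is not given in the sources used here, so neither the value of 1 gene nor a family sum can be read as a number of distinct reads. Without library 21, the same numbers of H2A genes (15 of 16) and H3 genes (10 of 10) were called higher, and without libraries 17 and 19 it was 16 of 16 and 10 of 10.

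**Figure D2:**
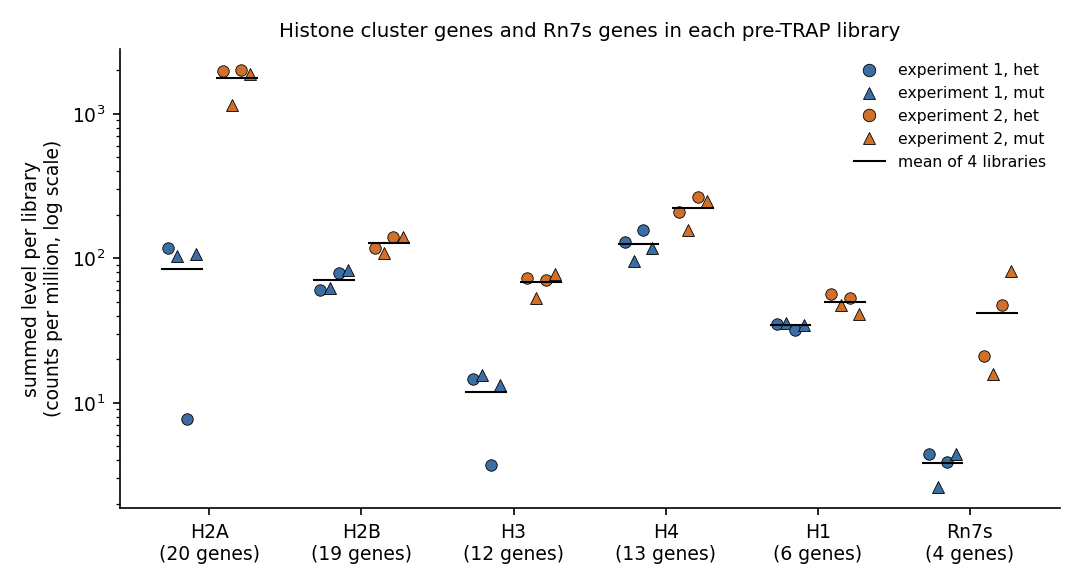
Each point is the summed level of a gene family in 1 pre-TRAP library in CPM of the library total, on a log scale, with circles for het, triangles for mut and a line at the mean of 4 libraries. The H2A sums are 7.7 to 117.4 in experiment 1 and 1158.3 to 2008.3 in experiment 2, while the H2B and H4 sums differ much less.

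The histone genes among the named rises were all of the H2A family. Hist1h2ap had 0.421 to 9.39 CPM in experiment 1 and 121.6 to 306.0 CPM in experiment 2, with a log2 difference of 5.56 ± 0.65 (SE, adjusted p = 0.000121). Hist1h2ao (5.26), Hist1h2ag (5.18), Hist1h2ac (4.76), Hist1h2an (4.32) and Hist1h2ah (4.32) followed on the same log2 scale. H2afx, a variant H2A gene outside those clusters whose protein marks DNA breaks when phosphorylated, was at 11.7 to 49.4 CPM in experiment 1 and 100.7 to 131.1 CPM in experiment 2 (log2 difference 2.21 ± 0.34, SE, adjusted p = 0.000716). It was named after its values were seen, as 1 of the abundant protein-coding genes with the largest differences. Genes of the small RNAs 7SK and 7SL, which act in transcription and in protein targeting, stand under the name Rn7s. The 4 of them summed to 2.6 to 4.4 CPM in experiment 1 and to 15.8 to 82.3 CPM in experiment 2. Rn7s6, Rn7s1 and Rn7s2 had log2 differences of 5.16, 4.87 and 4.82 (adjusted p = 0.00011, 0.000115 and 0.000125). Rn7sk, the 7SK RNA, had a log2 difference of 0.96 ± 0.31 and was not called (SE, adjusted p = 0.0546). The spread of the first 3 within experiment 2 was wide, and Rn7s6 alone ran from 2.73 CPM in library 18 to 18.1 CPM in library 24.

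A few single protein-coding genes differed by more than any cell type marker list. Dct, dopachrome tautomerase of the melanin pathway and a marker of melanoblasts, was at 10.3, 9.71, 12.8 and 9.98 CPM in libraries 19, 20, 21 and 22. In libraries 17, 18, 23 and 24 it was at 351.5, 280.6, 358.9 and 457.7 CPM. Each group was tight and the gap between them was wide, with a log2 difference of 5.08 ± 0.20 (SE, adjusted p = 4.28e-08). The other 6 melanocyte genes listed did not follow. Mitf, the master transcription factor of the lineage, was at 2.19 to 4.30 CPM in experiment 1 and 2.39 to 3.44 CPM in experiment 2. Kit, the receptor that melanoblasts need to migrate and survive, was at 2.90 to 4.40 CPM and 3.49 to 3.91 CPM. Tyr and Tyrp1, the other enzymes of melanin synthesis, had log2 differences of -0.28 and -0.15 at levels of at most 1.22 CPM. Pmel, which forms the fibrils of the melanosome, was lower (log2 difference -0.76 ± 0.24, SE, adjusted p = 0.0475), and Mlana had -1.01 (adjusted p = 0.0569). Of the 7 melanocyte genes, 1 was thus higher and 1 lower (14.3% each, beside 6.27% and 4.49% of protein-coding genes).

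**Figure D3:**
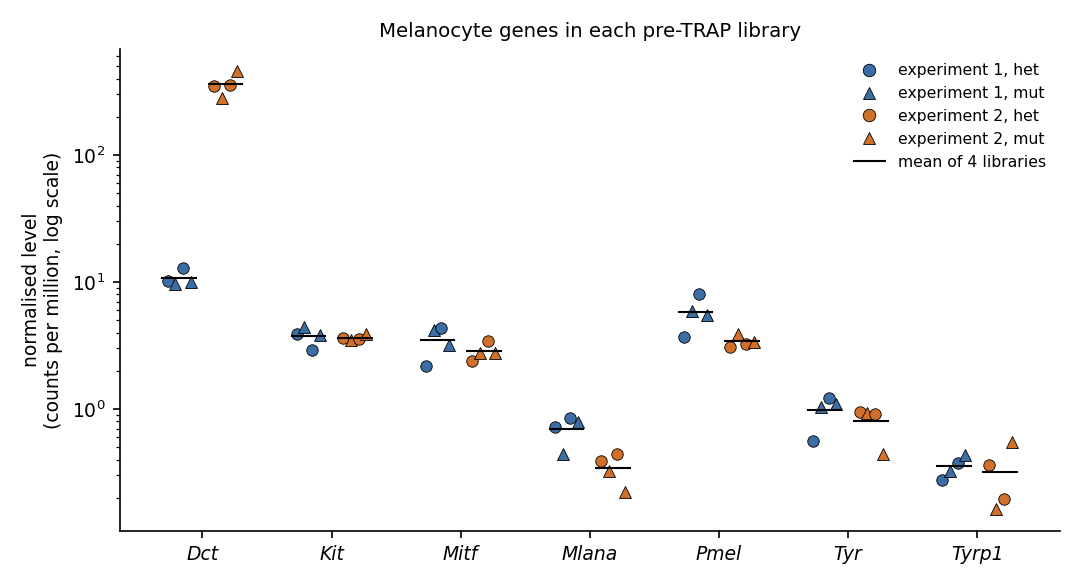
Points give the normalised level of each melanocyte gene in each pre-TRAP library in CPM on a log scale, with circles for het, triangles for mut and a line at the mean of 4 libraries. Dct lies at 9.71 to 12.8 in experiment 1 and 280.6 to 457.7 in experiment 2, whereas the points of Kit, Mitf, Tyr and Tyrp1 overlap between experiments.

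Grin1, the obligatory subunit of NMDA-type glutamate receptors, had 1 to 5 counts per library in experiment 1 (0.0290 to 0.117 CPM). It was at 5.60, 5.89, 6.29 and 6.48 CPM in libraries 17, 18, 23 and 24, with the largest log2 difference of the named genes (6.09 ± 0.31, SE, adjusted p = 3.06e-07). Fga, the alpha chain of fibrinogen and as a rule a liver product, was at 0.0808 to 0.281 CPM and 6.74 to 8.35 CPM (5.18 ± 0.30, SE, adjusted p = 1.5e-06). Slc22a19, an organic anion transporter, was at 0.278 to 0.819 CPM and 9.99 to 14.8 CPM (4.32 ± 0.30, SE, adjusted p = 5.98e-06). For all 3 genes the experiments were far apart, and the libraries of experiment 2 lay close together. Beside Grin1, 0 of 16 listed neuron genes were called higher. Among abundant genes, named after their values were seen, Eif4b, a cofactor of the translation initiation helicase, rose from 209.3 to 278.3 CPM to 776.5 to 1083 CPM (log2 difference 1.84 ± 0.16, SE, adjusted p = 1.55e-05). BC048507 (2.73), Ccnd3, a D-type cyclin (1.22), Serp1, a stress protein of the endoplasmic reticulum (1.24), and Chchd2, a mitochondrial protein (1.24), also rose on the log2 scale.

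The named falls were smaller than the named rises. Enc1, an actin-binding protein of neural and other tissues, was at 53.8, 78.5, 65.8 and 58.0 CPM in libraries 19, 20, 21 and 22 and at 18.3, 12.8, 10.9 and 9.12 CPM in libraries 17, 18, 23 and 24. The groups did not overlap, with a log2 difference of -2.34 ± 0.22 (SE, adjusted p = 3.25e-05), a level 5.02-fold lower. Ubb, a polyubiquitin gene, went from 20010 ± 3631 to 7838 ± 1264 CPM (SD, n = 4 each, log2 difference -1.36, adjusted p = 0.000149). The libraries did not overlap (16080 to 24770 against 6399 to 9453 CPM). Trp53, the tumour suppressor p53, was at 106.6 to 230.6 CPM and 67.0 to 77.2 CPM (log2 difference -1.18 ± 0.22, SE, adjusted p = 0.0028). Cavin1, a coat protein of caveolae (-1.32), Igsf3, a cell surface immunoglobulin protein (-1.19), Nupr1, a stress-induced chromatin protein (-1.26), and Gal, the neuropeptide galanin (-1.28), fell by similar amounts on the log2 scale. The other named falls, Cfi, Akr1b8, Tmem250-ps, Hddc3, Prr13, Ino80dos and Rdh13, had log2 differences of -1.30 to -1.12, and Hddc3 was not called without library 20 (-0.89, adjusted p = 0.065). Among protein-coding genes with a mean of at least 50 CPM, 302 of 2308 were lower (13.1%) and 114 were higher (4.94%). Below 1 CPM the split was the other way, with 32 of 2123 lower and 146 higher.

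Fgf20, the gene that the mutation targets, was at 0.232 to 0.611 CPM in experiment 1 and 0.136 to 1.69 CPM in experiment 2. It was not called between the experiments (log2 difference 0.69 ± 0.45, SE, adjusted p = 0.334).

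The cellular make-up was read from 21 lists of cell type, tissue and sex-linked genes, in which 208 genes were tested. Of these 7 (3.37%) were higher and 11 (5.29%) lower, beside 6.27% and 4.49% of protein-coding genes, and the median log2 difference was -0.08 against -0.00 over all genes tested. In bulk tissue fewer cells of a type and less RNA per cell cannot be told apart. Without libraries 17 and 19, 24 of 210 were higher (11.4%) and 27 lower (12.9%), beside 15.5% and 9.91% of all genes. The label of ventral otocyst was met by its markers, with Gata3 at 140.0 to 201.8 CPM, Oc90 at 260.7 to 700.9 CPM, Pou3f4 of the periotic mesenchyme at 112.8 to 195.3 CPM and Col2a1 of cartilage at 821.5 to 2347 CPM. Of 12 central nervous system genes, 8 were too low to be tested and none of the other 4 was called.

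In the sensory epithelium no prosensory gene of 12 and no hair cell gene of 13 tested was called. Sox2, required for the prosensory fate, was at 11.2, 5.39, 5.45 and 4.96 CPM in libraries 19, 20, 21 and 22 and at 14.9, 6.85, 7.99 and 4.80 CPM in libraries 17, 18, 23 and 24. Libraries 19 and 17 were highest, and the experiments overlapped. Atoh1, which specifies hair cells, was at 0.283 to 0.971 CPM and 0.546 to 1.53 CPM (log2 difference 0.51 ± 0.32, SE, adjusted p = 0.323), and Myo7a, a hair cell myosin, at 3.60 to 5.83 CPM and 4.96 to 7.27 CPM. The median of the hair cell list was 0.37 on the log2 scale, with 8 of 13 positive. Without libraries 17 and 19, the Notch effector Hey1 was called higher, as were Cib2 and Lhx3 of the hair cell list, while Grxcr1, of the hair bundle, was called lower. Jag1, the Notch ligand of the medial prosensory region, had -0.41 ± 0.15 (SE, adjusted p = 0.0942) and was not called.

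Among genes of the Kolliker organ and tectorial matrix 1 of 9 was lower (11.1%, beside 4.97% of all genes). Tectb, beta-tectorin, was at 43.1, 11.1, 50.5 and 12.0 CPM in libraries 19, 20, 21 and 22 and at 30.2, 7.80, 25.9 and 8.57 CPM in libraries 17, 18, 23 and 24. The het libraries were high and the mut libraries low in both experiments, and within each genotype experiment 2 was lower (log2 difference -0.62 ± 0.15, SE, adjusted p = 0.0139). Of 13 otic epithelium genes 2 were lower (15.4%, beside 4.97% of all genes). Oc90, the main matrix protein of otoconia, which is made by non-sensory epithelium, fell from 545.9 ± 126.5 to 288.5 ± 18.7 CPM (SD, n = 4 each, log2 difference -0.92 ± 0.17, SE, adjusted p = 0.00297), with no overlap. Rab25, an epithelial trafficking protein, fell by 0.61 on the log2 scale (adjusted p = 0.046). The general epithelial genes Krt8 (0.14), Krt18 (-0.07), Cdh1 (-0.30) and Epcam (-0.48, adjusted p = 0.0588) were not called, although Epcam was called lower without libraries 17 and 19. The roof genes Otx2 (-0.02), Lmx1a (-0.38) and Bmp4 (0.12) were not called either, although without libraries 17 and 19 Lmx1a and Gata2 were called lower and Otx1 higher.

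Vestibular and dorsal genes were near the limit of detection. Hmx3, a homeobox gene of the vestibular organs, was at 0.0234 to 0.101 CPM in experiment 1 and 0.305 to 0.444 CPM in experiment 2 (log2 difference 2.94 ± 0.53, SE, adjusted p = 0.00226), and Dlx6 at 0 to 0.121 CPM and 0.194 to 0.555 CPM (2.51 ± 0.67, SE, adjusted p = 0.023). The experiments did not overlap for either gene. Their related neighbours moved less, with 0.65 for Hmx2 (adjusted p = 0.152) and -0.19 for Dlx5. Otol1, a collagen of otoconia, had -0.38.

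Of 16 periotic mesenchyme genes none was called and the median was 0.02. Tbx18 was at 56.3 to 96.8 CPM and 54.8 to 114.8 CPM, and Pou3f4, a deafness gene of this mesenchyme, at 125.7 to 195.3 CPM and 112.8 to 174.2 CPM. The groups overlapped for both. Without libraries 17 and 19, 4 of the 16 genes (Foxc2, Osr2, Prrx1 and Twist1) were higher and Lum was lower. In the otic capsule Sox9, the master factor of cartilage, was at 326.0 to 406.5 CPM and 354.8 to 455.6 CPM. Cnmd, the anti-angiogenic cartilage protein chondromodulin, was the 1 gene of 16 called (671.8 ± 235.3 and 366.1 ± 66.7 CPM, SD, n = 4 each, log2 difference -0.88 ± 0.23, SE, adjusted p = 0.0212). Col2a1, the main collagen of cartilage, had -0.40 ± 0.26 (SE, adjusted p = 0.351) and was called lower without libraries 17 and 19, as were Acan and Snorc.

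Among genes of bone formation, Sp7, or osterix, the factor that commits cells to the osteoblast fate, stood out. It was at 0.916, 0.929, 0.632 and 0.841 CPM in libraries 19, 20, 21 and 22 and at 5.11, 4.75, 6.68 and 5.93 CPM in libraries 17, 18, 23 and 24. The groups were far apart, with a log2 difference of 2.75 ± 0.23 (SE, adjusted p = 1.41e-05). Runx2, the factor that acts before Sp7 in that lineage, had 0.07, Ibsp had -0.59 and Alpl had -0.13, none of them called. Spp1, osteopontin, was lower (-0.70 ± 0.19, SE, adjusted p = 0.0273). Bglap, Col10a1 and Mmp13, which mark mature bone and hypertrophic cartilage, were too low to be tested.

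Of 16 neuron genes 2 were lower (12.5%, beside 4.97% of all genes). Tubb3, the neuronal tubulin, was at 155.3 to 219.5 CPM and 83.9 to 129.9 CPM (log2 difference -0.84 ± 0.15, SE, adjusted p = 0.00197). Pou4f1, a transcription factor of the sensory neurons, was at 53.4 to 97.4 CPM and 32.6 to 48.2 CPM (-0.80 ± 0.15, SE, adjusted p = 0.00292). Both groups were apart, yet other neuron genes of similar level were not called, with -0.03 for Elavl4, -0.18 for Stmn2, -0.01 for Nefl and -0.34 for Gap43. Of 10 Schwann cell and glia genes, Ednrb, an endothelin receptor, was the 1 called (-0.65 ± 0.15, SE, adjusted p = 0.0114), and Sox10 (0.11) was not.

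In vessels and blood, Eng, the co-receptor endoglin, was the 1 endothelial gene of 12 called, from 5.11 ± 1.74 to 11.4 ± 1.25 CPM (SD, n = 4 each, log2 difference 1.16 ± 0.24, SE, adjusted p = 0.005). Pecam1 (-0.20), Cdh5 (0.08) and Kdr (-0.02) were not called. None of 10 pericyte genes was called, and 1 of 13 macrophage genes, the complement chain C1qc, was higher (1.09 ± 0.31, SE, adjusted p = 0.0314). The share called higher was 7.69% for macrophage and 8.33% for endothelial genes, near the 6.27% of protein-coding genes. The adult globins varied within an experiment by more than between them, as Hba-a1 was at 1995, 2088, 3935 and 4568 CPM in libraries 19, 20, 21 and 22 and at 2037, 1891, 2820 and 2422 CPM in libraries 17, 18, 23 and 24. Hba-a1 and Hba-a2 are near copies. Of 12 skeletal muscle genes 2 were lower (16.7%, beside 4.97% of all genes). These were Tnnt3 (-1.06, adjusted p = 0.00747) and Mylpf (-0.84, adjusted p = 0.0435), both of the fast contractile apparatus. Of 8 epidermal genes 1 was higher (12.5%, beside 6.27% of protein-coding genes). This was Krt1 (0.511 ± 0.0998 and 1.58 ± 0.369 CPM, SD, n = 4 each, adjusted p = 0.00149). Krt5 (-0.50) and Krt14 (-1.19) varied widely, with library 22 at 9.17 and 5.08 CPM. None of 4 choroid plexus genes was called with all 8 libraries. Ttr and Enpp2 were called lower without library 19 and without libraries 17 and 19, and Ttr also without library 17.

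**Figure D4:**
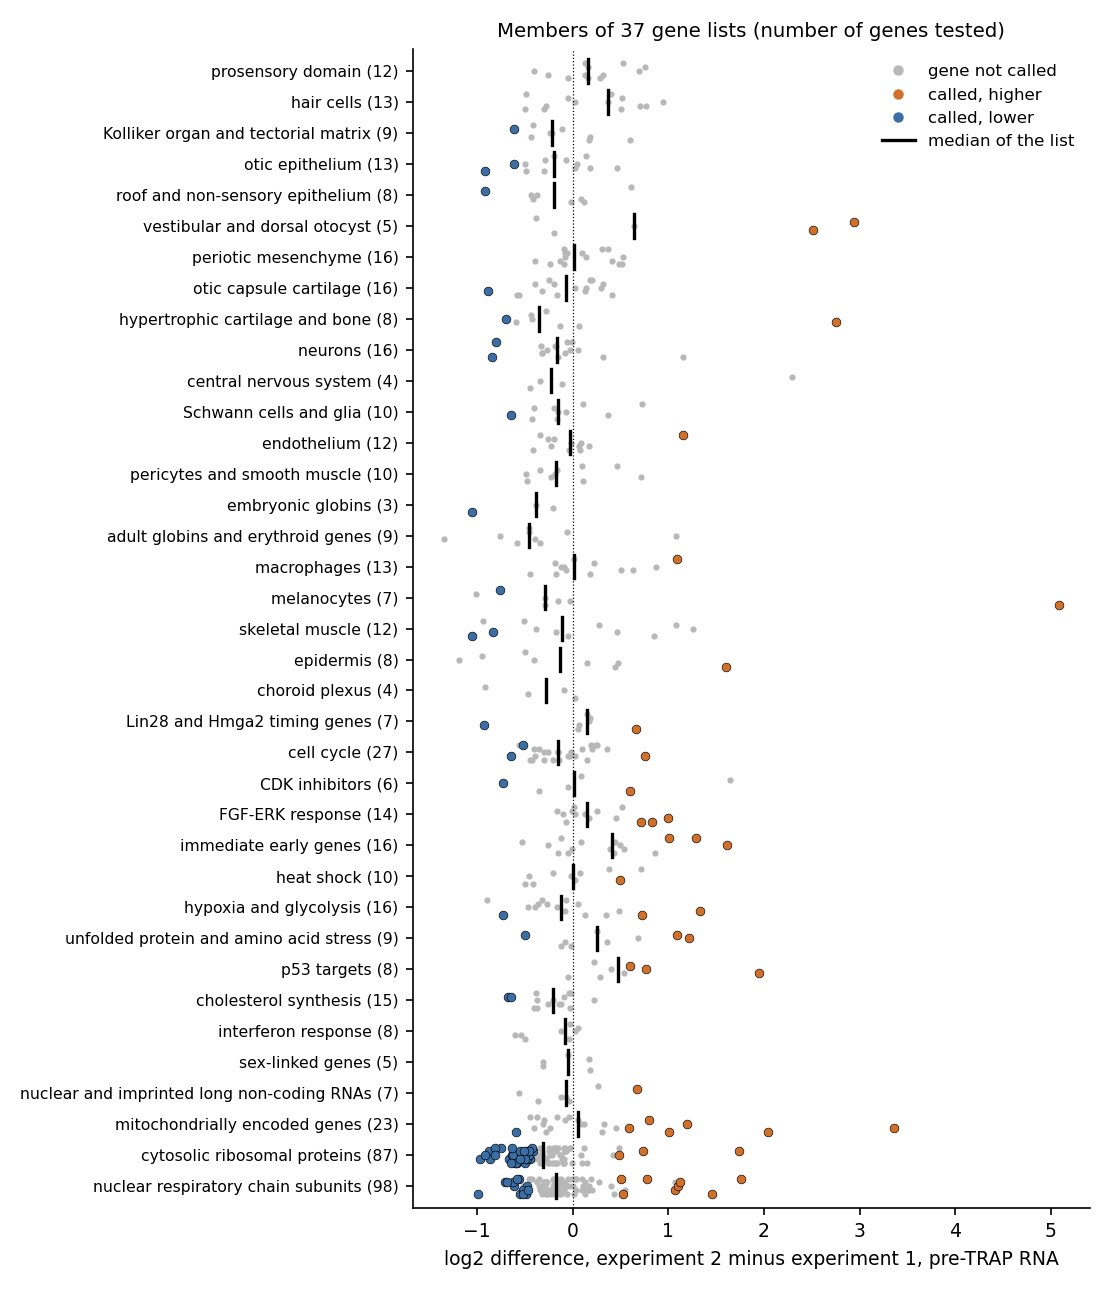
Each dot is a gene of the list named at the left, placed at its log2 difference between the experiments in pre-TRAP RNA, coloured where it was called, with a bar at the median of the list and the number of genes tested in brackets. Most dots are grey and lie near 0, with Dct (5.08), Hmx3 (2.94), Sp7 (2.75) and Dlx6 (2.51) far to the right, and most ribosomal protein genes lie left of 0.

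For maturity, 43 genes of 4 lists were tested, of which 3 were higher (6.98%) and 5 lower (11.6%). Of protein-coding genes 6.27% were higher and 4.49% lower, so the higher share was near that of its class. The shares of all genes were 9.74% and 4.97%. It was 4 and 8 without libraries 17 and 19, and 2 and 3 without library 17. Of the timing genes, Lin28b (0.05), Hmga2 (0.07), Igf2bp1 (0.17), Igf2bp2 (0.18) and Igf2bp3 (0.15) were not called. Hmga2 was at 142.1, 95.7, 130.6 and 124.6 CPM in libraries 19, 20, 21 and 22 and at 171.3, 121.6, 128.7 and 99.0 CPM in libraries 17, 18, 23 and 24, with overlap. Hmga1, a chromatin protein of proliferating cells, was higher (0.67 ± 0.19, SE, adjusted p = 0.0303), and Trim71, a let-7 target that falls early in development, was lower (6.34 ± 0.817 and 3.38 ± 0.982 CPM, SD, n = 4 each, log2 difference -0.93 ± 0.22, SE, adjusted p = 0.011). Embryonic globins are replaced by adult globins as red cells mature. Hba-x was lower, at 131.9 to 190.0 CPM against 56.7 to 99.5 CPM (-1.05 ± 0.19, SE, adjusted p = 0.00268), while Hbb-y (-0.38) and Hbb-bh1 (-0.20) were not called and overlapped. The list of adult globins and erythroid genes also had a negative median (-0.45), with 1 of 9 differences positive and none called. Whether the fall of Hba-x went with maturity or with the amount of blood was not tested.

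Of 27 cell cycle genes 1 was higher (3.70%) and 2 were lower (7.41%), beside 6.27% and 4.49% of protein-coding genes. These were 2 and 5 without libraries 17 and 19, and without library 17 none was lower. Cdt1, the licensing factor of replication origins, rose from 10.4 ± 1.15 to 17.6 ± 1.28 CPM (SD, n = 4 each, log2 difference 0.76 ± 0.15, SE, adjusted p = 0.00546). Tyms, thymidylate synthase, fell (-0.65 ± 0.15, SE, adjusted p = 0.011), and Gins2 of the replicative helicase was just past the threshold (-0.51 ± 0.16, SE, adjusted p = 0.0499). The proliferation markers Mki67 (-0.03), Pcna (-0.30) and Ccnb1 (-0.21) were not called. Among CDK inhibitors Cdkn1b, which drives the exit of prosensory cells from the cycle, was at 19.8 to 51.6 CPM and 25.6 to 37.2 CPM (-0.05). Cdkn1a was higher (0.60 ± 0.16, SE, adjusted p = 0.0236). Cdkn1c, an imprinted inhibitor, was lower (690.5 ± 114.6 and 419.3 ± 117.4 CPM, SD, n = 4 each, -0.72 ± 0.17, SE, adjusted p = 0.0117), although library 17 at 594.8 CPM lay above library 20 at 584.4 CPM.

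Of 14 genes that respond to FGF and ERK signalling 3 were higher (21.4%, beside 9.74% of all genes and 6.27% of protein-coding genes). Without library 19 there were 5, with Spred2 and Spry1 added, and without library 17 or 21 there were 2. The 3 were Ccnd1, cyclin D1 (75.3 ± 27.0 and 129.0 ± 13.7 CPM, SD, n = 4 each, log2 difference 0.83 ± 0.18, SE, adjusted p = 0.00738), Etv4, a transcription factor induced by FGF (0.72 ± 0.18, SE, adjusted p = 0.0162), and Dusp4, an ERK phosphatase at 0.303 to 1.55 CPM (0.99 ± 0.29, SE, adjusted p = 0.037). The direct targets Dusp6 (-0.00), Etv5 (0.17), Spry2 (0.13) and Spry4 (-0.16) were not called.

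Immediate early genes, which rise within minutes of handling or stimulation, were higher in 3 of 16 cases (18.8%). The share was 9.74% of all genes and 6.27% of protein-coding genes. The count of immediate early genes was 6 of 18 without libraries 17 and 19, with Jun, Myc and Zfp36 added, and without library 21 it was 2 of 18. Ier2 was at 5.33 to 13.4 CPM and 21.7 to 25.5 CPM (1.29 ± 0.25, SE, adjusted p = 0.00396), Ccn2 at 9.94 to 15.4 CPM and 22.7 to 28.3 CPM (1.01 ± 0.18, SE, adjusted p = 0.00184), and Junb below 1 CPM (1.61 ± 0.41, SE, adjusted p = 0.0192). The experiments did not overlap for these genes. Fos (-0.52), Egr1 (-0.01) and Dusp1 (-0.05), the usual first responders, were not called. Of 10 heat shock genes Dnajb1 alone was called, as higher (0.49, adjusted p = 0.0366), which is 10% of the list beside 6.27% of protein-coding genes. Hspa1a and Hspa1b, the inducible forms, stayed at 1.25 CPM or below in every library. Among 9 genes of the unfolded protein and amino acid response, Xbp1 rose from 29.5 ± 3.56 to 62.9 ± 21.4 CPM (SD, n = 4 each, adjusted p = 0.00439). Trib3 rose (1.22, adjusted p = 0.0176) and Ddit3 fell (-0.50, adjusted p = 0.0337), while Hspa5 (-0.02) and Atf4 (-0.08) were not called. Of the list 22.2% was thus higher and 11.1% lower, beside 6.27% and 4.49% of protein-coding genes.

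Of 8 genes activated by p53, 3 were higher in experiment 2 (37.5%), where Trp53 itself was lower. The share was 9.74% of all genes and 6.27% of protein-coding genes. The count of p53 targets was 4 without library 19 and 2 without library 17. Bbc3, the cell death gene Puma, was at 1.14, 0.626, 0.538 and 0.754 CPM in libraries 19, 20, 21 and 22 and at 5.38, 2.92, 1.91 and 1.74 CPM in libraries 17, 18, 23 and 24 (1.95 ± 0.36, SE, adjusted p = 0.0028). Ccng1, cyclin G1, rose by 0.76 (adjusted p = 0.00961) on the log2 scale and Cdkn1a is given above. Mdm2 (0.23), Bax (-0.05) and Phlda3 (0.28) were not called. Of 16 entries for hypoxia and glycolysis, the oxygen sensor Egln3 (1.34, adjusted p = 0.0124) and Ddit4 (0.73, adjusted p = 0.0464) were higher. The more abundant of the 2 entries named Aldoa was lower (-0.73, adjusted p = 0.00596), with Slc2a1 at 0.06. Of this list 12.5% was higher and 6.25% lower, beside 6.27% and 4.49% of protein-coding genes. Of 15 cholesterol synthesis genes 14 had negative differences and 1 a positive one, beside 10920 of 21954 genes tested that were positive. The 2 called lower (13.3%, beside 4.97% of all genes) were Fdft1 (-0.68, adjusted p = 0.0229) and Sc5d (-0.64, adjusted p = 0.0355). No gene of this list was called without library 17 or without library 21. None of 8 interferon response genes was called. Of 7 nuclear and imprinted long non-coding RNAs, Meg3 was higher (0.67, adjusted p = 0.012). Malat1, kept in the nucleus, had -0.56 (adjusted p = 0.104), and H19 had -0.04 with library 19 at 4843 CPM and library 17 at 4096 CPM against 1668 to 2276 CPM in the other 6.

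Of 87 genes of cytosolic ribosomal proteins, 30 were lower (34.5%) and 3 were higher, beside 13.1% of protein-coding genes of at least 50 CPM that were lower. The median was -0.31, with 78 differences negative and 9 of 87 positive. For the protein-coding genes of at least 50 CPM the median was -0.16, with 721 of 2308 differences positive. Rps19 went from a range of 3574 to 4326 CPM to a range of 1899 to 2307 CPM (log2 difference -0.92, adjusted p = 0.000477), and Rpl4 from 2328 to 2937 CPM to 1406 to 1618 CPM (-0.81, adjusted p = 0.000988). The 3 that rose were Rps2, Rpl36al and Rpl39. Rps2 was at 192.1, 117.9, 42.0 and 143.2 CPM in libraries 19, 20, 21 and 22 and at 319.1 to 479.0 CPM in experiment 2, with library 21 far below its group. Without library 21, 18 of 88 were lower and 2 were higher, and without library 17 it was 16 and 2 of 87. Of 98 nuclear genes of the respiratory chain 8 were higher (8.16%) and 13 lower (13.3%), beside 9.74% and 4.97% of all genes. The lower share was near the 13.1% of protein-coding genes of at least 50 CPM, of which 4.94% were higher. The lower count was 3 of 100 without library 17, 6 of 100 without library 21, 20 of 99 without library 19 and 22 of 99 without libraries 17 and 19. Ndufb2 (1.45), Cox8a (1.08) and Atp5d (0.78) rose. Ndufaf2 (-0.99), an assembly factor that the list also holds, Cox7a2l (-0.70) and Cox4i1 (-0.61) fell. Subunits of 1 complex thus moved in both directions, with Cox8a higher and Cox4i1 lower. Cox5a rose from 38.4 ± 23.0 to 119.4 ± 22.0 CPM (SD, n = 4 each), with library 21 at 6.29 CPM. Ribosomal protein and respiratory chain genes have many processed pseudogenes. Of 23 mitochondrially encoded genes tested 6 were higher (26.1%) and 1 was lower (4.35%), beside 9.74% and 4.97% of all genes. Without library 19 it was 6 and 3 of 25. Without libraries 17 and 19 it was 6 and 5 of 23, and the median turned from 0.06 to -0.20. The rises were the tRNAs mt-Tq (3.36), mt-Ta (2.04), mt-Te (1.20) and mt-Tp (1.00) and the messages mt-Nd3 (0.80) and mt-Atp8 (0.59), and mt-Cytb fell by 0.59 on the log2 scale. The mitochondrial share of counts overlapped, at 0.676% to 0.897% in experiment 1 and 0.638% to 1.00% in experiment 2.

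The calls of single list members were often lost when 1 library was left out, in most cases any of several libraries. Of the 44 members called in lists of named genes, 21 were called without each of the 8 libraries in turn and 23 were not, and none changed sign. Among the 21 were Dct, Sp7, Hmx3, Eng, Krt1, Oc90, Tubb3, Pou4f1, Tnnt3, Hba-x, Trim71, Cdkn1c, Cdt1 and Ccnd1, and also Bbc3, Ccng1, Ier2, Ccn2, Xbp1, Meg3 and Aldoa. The calls of Ednrb and Etv4 were lost without library 20, that of Tectb without library 18, that of Tyms without library 17 and that of Egln3 without library 24. Cnmd was not called without library 17, 18 or 20, Cdkn1a without 17, 20 or 24, and Trib3 without 18, 20 or 21. Spp1 was not called without library 17, 18, 20 or 23, Dlx6 without 17, 18, 21 or 22, Hmga1 without 18, 20, 21 or 24, and C1qc without 20, 21, 23 or 24. Junb was not called without library 17, 18, 20, 21 or 22, and Fdft1 without 17, 18, 20, 21 or 24. Dusp4, Ddit4, Sc5d and Dnajb1 were each lost without any of 6 libraries, and Pmel, Rab25, Mylpf, Gins2 and Ddit3 without any of 7.

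Leaving out libraries 17 and 19 together also changed the counts of other lists, beside 15.5% of all genes higher and 9.91% lower in that comparison. Calb1 was then higher and Crym lower among genes of the Kolliker organ and tectorial matrix, and Cldn6 was lower in the otic epithelium. Panx3 of the bone list was lower, Notch3 was higher and Cspg4 lower among pericyte genes, and Klf1 was higher and Alas2 lower among erythroid genes. C1qa of the macrophages, Myod1 of skeletal muscle and Krt10 of the epidermis were higher. Of the heat shock genes Hspa8 and Hspd1 were lower, Vegfa was higher and Pgk1 lower in the hypoxia and glycolysis list, and Sesn2 and Trp53inp1 were higher in the lists of amino acid stress and p53 targets. Ifi27 and Malat1 were lower in theirs.

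The TRAP libraries of the same 2 experiments, 8 against 8, were set beside these values. In them 3051 of 21577 genes were higher (14.1%) and 1901 were lower (8.81%), and 7452 (34.5%) had an unadjusted p under 0.05. Of the 2071 pre-TRAP rises that were tested there, 1670 were called higher in TRAP as well, which is 80.6% of these rises and 60.1% of the TRAP rises tested in both. Of the 1055 pre-TRAP falls, 640 were called lower in TRAP, which is 60.7% of these and 34.2% of the TRAP falls. None of the pre-TRAP rises fell in TRAP and 1 fall rose. Whether pre-TRAP and TRAP libraries came from the same embryos is not given in the sources used here. Dct had a median of 1.15 CPM in TRAP libraries of experiment 1 and 48.3 CPM in experiment 2, with a log2 difference of 5.00 ± 0.34 (SE, adjusted p = 2.56e-09). Grin1 (5.70), Fga (5.84), Sp7 (3.06), Hmx3 (3.33) and Hist1h2ap (5.39) were also called higher in TRAP, and Enc1 (-1.86), Ubb (-0.76) and Trp53 (-0.92) lower. Other genes were called in pre-TRAP RNA and not in TRAP RNA, among them Oc90 (-0.34 in TRAP, adjusted p = 0.268), Tectb (-0.11), Hba-x (-0.14), Trim71 (-0.04), Gal (0.22), Rn7s1 (0.78) and Rn7s2 (0.78).

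The difference itself was tested as the interaction of experiment and method over all 24 libraries. Of 24242 genes, 2 had a larger value in pre-TRAP RNA (0.00825%) and 7 a smaller value (0.0289%), and 1107 (4.57%) had an unadjusted p under 0.05. Eif4b was the 1 called gene that the naming rule admits. Normalised over all 24 libraries, it rose from a median of 257.6 to 866.6 CPM in pre-TRAP and from 144.5 to 1140 CPM in TRAP, so its log2 difference was smaller in pre-TRAP by 1.13 ± 0.19 (SE, adjusted p = 0.0118). None of the 31 genes named by rule was called in this test, including Rn7s1, Rn7s2 and Rn7s6, whose differences were 4.03 to 4.12 log2 units larger in pre-TRAP (adjusted p = 0.158 to 0.358).

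**Figure D5:**
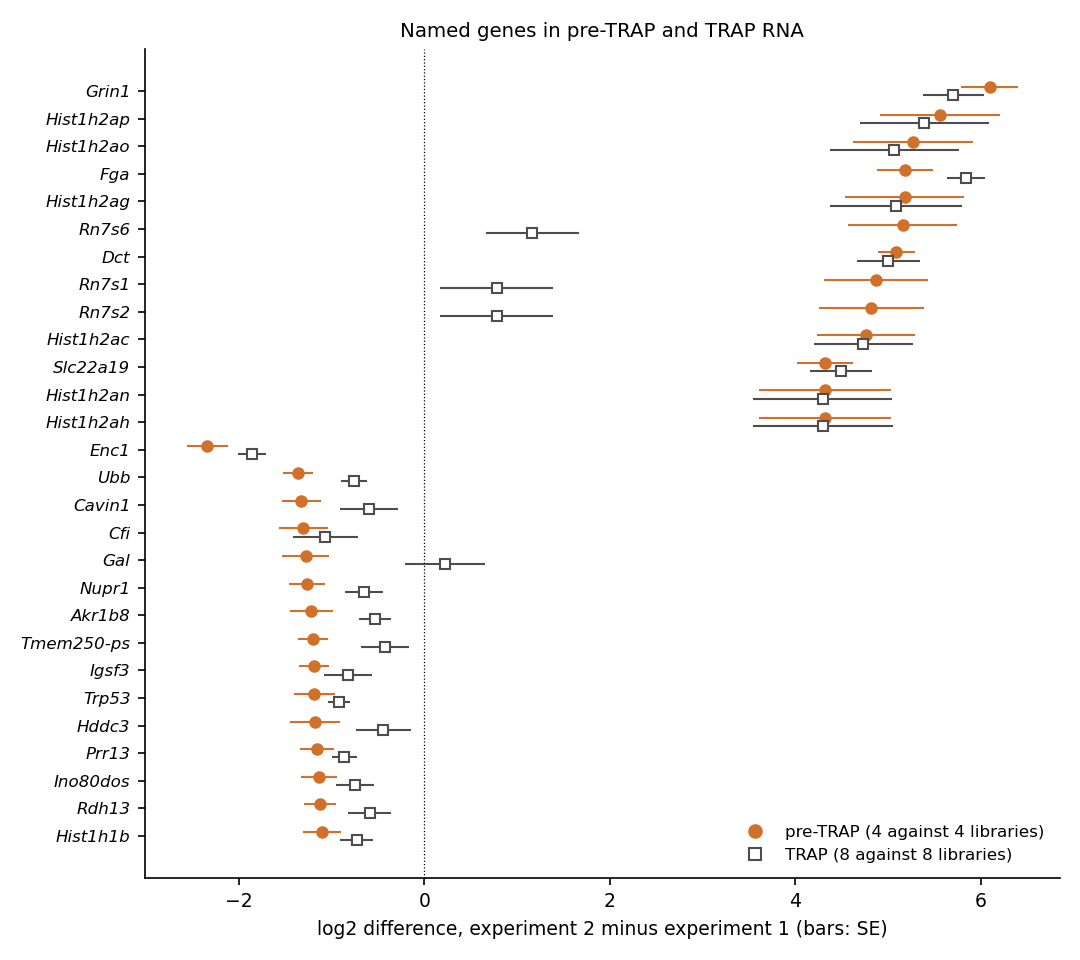
The log2 differences between experiment 2 and experiment 1 of genes named by rule are shown for pre-TRAP RNA (filled circles) and TRAP RNA (open squares), with bars for the SE. Most genes lie on the same side of 0 in both, Gal lies at -1.28 and 0.22, and Rn7s6 lies at 5.16 and 1.17.

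The experiment difference was also compared between the genotypes. No gene was called for the interaction of genotype and experiment with edgeR or DESeq2, and 178 of 21954 (0.811%) had an unadjusted p under 0.05. That share is smaller than the threshold itself would give without any interaction. With 2 libraries of each genotype per experiment, the lack of calls does not show that the genotypes agreed. For Dct the log2 difference was 4.95 in het and 5.26 in mut libraries, and for Grin1 it was 5.67 and 6.67. Hist1h2ap had 6.67 in het and 4.57 in mut, where the het value includes library 21. In the het libraries alone, which include 17 and 19, 581 genes were higher and 15 lower, against 1920 and 757 in the mut libraries alone.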

How the data were processed

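PolyA RNA of ventral otocysts was sequenced by the submitters. The authors deposited raw counts for each Ensembl gene in each library, and no scaling had been applied to them. STAR, DESeq2 and the build GRCm38.p5 appear in the submitters' processing notes. For versions, annotation, counting tool, strand setting and the treatment of reads with several matches, nothing is given in the sources used here. RNA classes came from RefSeq (GRCm38.p6) by symbol, for 19808 of 21954 genes tested (90.2%), and no coordinates are given as the builds differ in patch. Sequences of transcripts were not used here.

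Experiment 2 was compared with experiment 1 in edgeR 4.0.16 (R 4.3.3) with genotype as covariate, TMM factors, filterByExpr with a minimum count of 10, quasi-likelihood F tests and Benjamini-Hochberg adjustment over all genes tested, with a threshold of 0.05. The pre-TRAP experiment fit was run on counts simulated from its own model and dispersions. These held no outlying libraries and no reads shared between copies, so the run does not test those features. CPM values are normalised with the TMM factors, except the family sums, which are per library total. Totals of 3.22e+07 to 5.34e+07 counts per pre-TRAP library set the precision. Libraries share no replicate numbers across experiments and were not paired.

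Named were Fgf20 and up to 15 rises and 15 falls with the largest log2 difference that were called, had a mean CPM of 2 or more, the same sign within each genotype and a name that is no clone-type model. In the interaction tests up to 5 each way were named. List members were named if they were called, defining markers or the extremes of their list. Abundant genes (mean of at least 50 CPM, protein coding) were named after their values were seen. The comparison, lists and rules were chosen with earlier results of these data known. The 37 lists are described by counts and medians and have no test. Alternatives were other scalings, no count filter, DESeq2 1.42.0, limma 3.58.1 with quality weights, other library sets and leaving out each library. Chosen after seeing the data were protein-coding genes alone and leaving out libraries 17 and 19 together. Some genes that meet the naming rule are not reported here.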

Additional observations from a re-analysis of the deposited data

Results flagged for a closer look

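In 130 groups of 4 libraries (levels of lists and CPM of named genes), 8 had a library further from the rest than the 95% limit of Dixon's test. Chance gives about 1 in 20 such groups. Library 19 was the highest of experiment 1 for the levels (mean log2 of CPM plus 0.5) of 4 lists. These were prosensory genes, with 4.18 against 3.55 to 3.63, hair cell genes, with 1.41 against 1.25 to 1.27, periotic mesenchyme genes, with 5.79 against 5.47 to 5.51, and nuclear and imprinted long non-coding RNAs, with 6.52 against 6.01 to 6.07. Library 21 was the lowest of experiment 1 for Hist1h2an, with 0.0936 CPM against 8.81 to 9.16, and for Hist1h2ah, with 0.0936 CPM against 8.79 to 9.13. These near-identical genes count as 1 observation. In experiment 2, library 24 was the lowest for the level of the Lin28 and Hmga2 timing genes, with 4.96 against 5.21 to 5.26, and library 17 was the lowest for Rdh13, with 16.3 CPM against 26.6 to 28.0 CPM.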

How the results depend on the processing

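The counts of genes called were 2139 higher and 1092 lower. Across 19 other settings the counts higher ran from 581 to 3536 and the counts lower from 15 to 2262. Limma voom gave 1907 lower. Het libraries alone gave 581 higher and 15 lower. Protein-coding genes alone gave 850 and 389. Leaving out libraries 17 and 19 gave 3536 and 2262. Leaving out 1 library gave 1516 to 3177 higher and 479 to 1748 lower, the extremes being library 20 and library 19. The higher share of all calls was 66.2%, against 97.5% in het libraries alone and 76.9% and 78.9% without library 17 or 18. For the experiment by method interaction (2 higher, 7 lower), no filter gave 15 and 24, and DESeq2 gave 10 and 33. No paired analysis was possible because the experiments share no replicate numbers.

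Of 583 values of named genes under these settings, 564 kept direction and call, 19 kept direction but missed the threshold and none changed sign. Of those 19, 15 came from the het libraries alone and 3 from the fit of all 24 libraries. Apart from Fgf20, the naming rule took genes that were called with large differences and the same sign within each genotype. Their signs in het or mut libraries alone were therefore fixed in advance, and the other settings were favoured by this choice. Of 701 medians of lists, 61 moved by more than the spread between libraries. The cause was not tested. With 4 libraries a side, small differences in genes of low count are beyond what this depth resolves.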
